A study of Mus musculus with 10 samples.

Results

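Contacts within chromosomes 1 to 19 were compared between naive B cells and plasma cells of the mouse in 1 contact map of each cell type. Each map divides the genome into bins of 500 kb, and the bins were taken by position alone: 4955 of the 5296 bins of the deposited map lie on chromosomes 1 to 19. Of these, 4548 had enough contacts with other chromosomes in both maps to be used. The maps are 2 of the 10 samples of the series, which also profiled RNA, open chromatin and histone marks in these cells. They were made by TCC, a form of Hi-C in which crosslinked chromatin is tethered, digested (here with MboI), ligated and sequenced from both ends, so that each read pair records 2 sites that lay close together in the nucleus.

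Naive B cells were CD23+ spleen cells of WT C57BL/6 mice purified on magnetic columns. The plasma cells came from Blimp-GFP mice of the same strain, in which GFP reports the plasma cell regulator Blimp-1, encoded by Prdm1. The labels do not say from how many mice or cultures a library was made. They call the plasma cells ex vivo sorted, whereas their protocol describes CD23+ cells cultured with LPS at 10 µg/ml for 3 days, fixed, and then sorted for GFP. Both kinds of cell were fixed with 1% formaldehyde. Cell type, mouse genotype, culture with LPS and sorting cannot be told apart in this design, and the word plasma below stands for all of them together.

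A chromosome folds at several scales. Neighbouring stretches touch most often, and contact declines with distance along the DNA. Stretches of active, open chromatin prefer each other and are set apart from closed chromatin, which lies more at the nuclear edge; these preferences form the A and B compartments. Borders that few contacts cross, called boundaries, separate neighbouring domains, and cohesin, which extrudes loops, and Ctcf, which halts it, shape many of them. Whole chromosomes keep to their own territories, and mouse chromosomes carry their centromere at 1 end.

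The read pairs behind the balanced maps could be recovered as whole numbers. Between used bins of the same chromosome at different positions there were 17334031 read pairs in the naive and 18754986 in the plasma map, and between used bins of different autosomes 8367983 and 6965374. Contact is given here per 1000 of a bin's row sum, with the mean row sum set equal between the maps. With 1 library per cell type there was no test of any difference. The 95% intervals below come from the read pairs and cover counting error only, and chromosomes or bins of 1 library are not replicates.

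Plasma chromosomes had more contact at short and middle range and less at long range. Contacts at 0.5 to 5 Mb made up 18.5% of the row sums in naive and 24.1% in plasma cells, and those at 5.5 to 30 Mb 16.2% and 19.2%. Both shares were higher in plasma on 19 of 19 chromosomes. Contacts over 30 Mb made up 15.8% and 9.70%, lower on 19 of 19. Contact inside a bin took 24.4% and 26.5%, and contact with other chromosomes 25.1% and 20.5%. The shares of a map sum to 100%, so a gain at 1 distance has to be matched elsewhere. The share of contacts between chromosomes thus moved the same way as the far share. Its part in the difference at long range was not tested.

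The ratio of the maps did not change evenly with distance. Bins 1 Mb apart had a mean contact of 14.4 in naive and 19.7 in plasma cells, a log2 ratio of 0.45 (95% interval 0.45 to 0.46). The ratio was 0.20 at 5 Mb (3.14 against 3.62), 0.31 at 17.5 Mb (1.76 against 2.18) and 0.06 at 30 Mb (1.51 against 1.57). The excess of plasma contact therefore had a low point near 5 Mb and a second rise at 10 to 20 Mb. At 40 Mb the log2 ratio was -0.25 (1.34 against 1.13), and it went on down to -0.95 at 60 Mb, -1.68 at 80 Mb and -2.25 at 100 Mb. At 100 Mb the mean contact was 0.625 in naive and 0.131 in plasma cells, from 10305 and 2170 read pairs (95% interval of the log2 ratio -2.32 to -2.18). All 14 chromosomes long enough for that distance had less contact there in plasma.

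**Figure D1:**
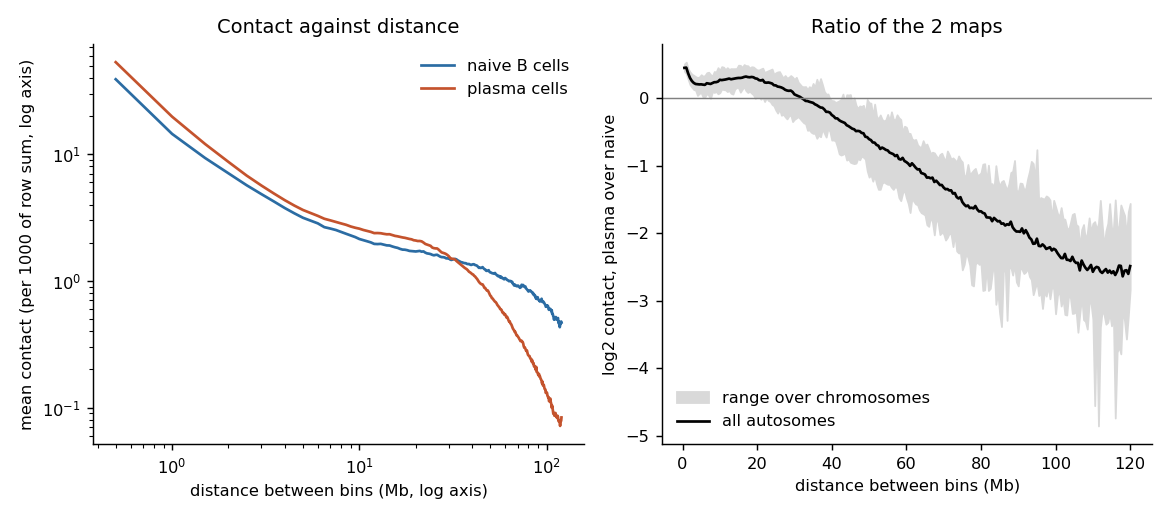
Left, mean contact of used bin pairs of 19 autosomes (per 1000 of row sum, log axis) against the distance between them (Mb, log axis) in naive B cells (blue) and plasma cells (orange). Right, the log2 of plasma contact over naive contact against distance, with the range over chromosomes in grey; the line is at 0.45 at 1 Mb, crosses 0 near 32 Mb and is at -2.25 at 100 Mb.

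The shape of the decay can be given as the exponent of contact against distance, the slope on a log-log scale. Between 0.5 and 5 Mb it was -1.06 in naive and -1.15 in plasma cells, steeper in plasma on 19 of 19 chromosomes. Between 5 and 20 Mb it was -0.43 and -0.37, flatter in plasma on 16 chromosomes and steeper on 3. Beyond that the maps parted: from 20 to 80 Mb the exponent was -0.54 in naive and -1.59 in plasma cells. On single chromosomes it ran from -0.76 to 0.02 in naive and from -1.89 to -1.15 in plasma cells, so the ranges did not overlap. Chromosome 19 is 61.3 Mb long and does not reach 80 Mb, so its exponent covers the shorter distances alone. Taken in steps, the exponent of the naive map was -0.29 from 16 to 32 Mb, -0.57 from 32 to 64 Mb and -1.05 from 64 to 100 Mb. In the plasma map the same steps had -0.60, -1.68 and -2.82. From 8 to 64 Mb no step of the naive map was steeper than -0.57, whereas the plasma map went from -0.34 at 8 to 16 Mb to -1.68.

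The distance from which plasma contact stayed below naive contact was 32 Mb over all autosomes. By chromosome it had a median of 34.5 Mb, a lowest value of 21.5 Mb on chromosome 11 and a highest of 45.5 Mb on chromosome 16. The point of the highest ratio beyond 5 Mb lay between 6 and 20.5 Mb, with a log2 ratio there of 0.19 to 0.47. Chromosome 11 had the lowest of these peaks and chromosome 9 the highest. When the maps were scaled to the same sum of contacts within autosomes, which removes the difference in contacts between chromosomes, the crossing lay at 29.5 Mb.

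Far contact was lower in plasma on every autosome, to a differing degree. The share of contacts over 30 Mb grows with chromosome length, from 4.84% of the naive row sums on chromosome 19 to 21.2% on chromosome 1, so chromosomes were compared by the mean contact at 30 to 60 Mb, a span that all 19 hold. The log2 ratio of that contact ran from -0.76 to -0.05 with a median of -0.29, and no chromosome was above 0. At 10 to 30 Mb it ran from 0.0013 to 0.38, and no chromosome was below 0. The chromosomes with the largest difference were 11, 17 and 10. Chromosome 11 had a contact at 30 to 60 Mb of 1.28 in naive and 0.754 in plasma cells (log2 ratio -0.76, 95% interval -0.77 to -0.75, from 222938 and 128376 read pairs). Chromosome 17 had 1.38 and 0.906 (-0.61), and chromosome 10 had 1.37 and 0.952 (-0.53).

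The chromosomes with the smallest difference were 16, 15 and 3. Chromosome 16 had 1.17 in naive and 1.14 in plasma cells (log2 ratio -0.05, 95% interval -0.06 to -0.03), and with recovered read pairs in place of balanced values its log2 ratio was -0.0030. Chromosome 15 had 1.20 and 1.05 (-0.19) and chromosome 3 had 1.14 and 0.979 (-0.22). Chromosome 3 nevertheless had a large drop in its whole far share, from 17.8% to 10.5%. It is 159.6 Mb long, so that share also counts distances over 60 Mb. Chromosomes with more ATAC peaks per bin tended to have the larger difference: over 19 chromosomes the log2 ratio at 30 to 60 Mb had a Pearson r of -0.64 and a Spearman rho of -0.53 with the mean number of peaks, against 0.12 and 0.09 with length. The log2 ratio of the share over 30 Mb had a Pearson r of -0.39 with the mean number of peaks and of -0.43 with length. The points share the 2 libraries, and these coefficients are a description.

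**Figure D2:**
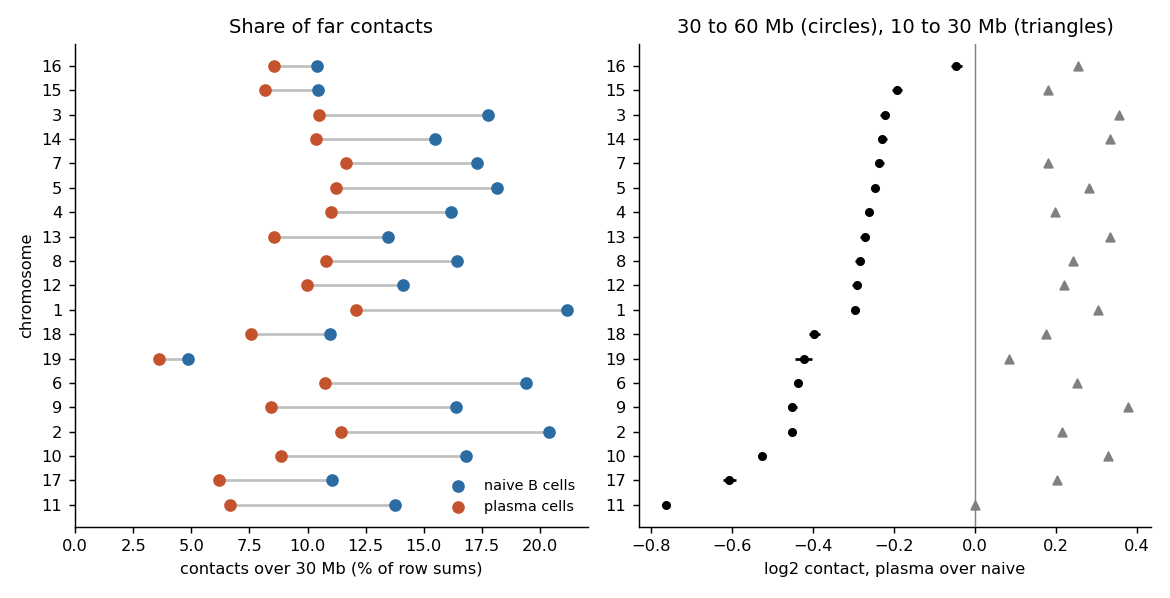
Left, share of the row sums in contacts over 30 Mb (%) for each of 19 chromosomes in naive B cells (blue) and plasma cells (orange). Right, log2 ratio of plasma over naive mean contact at 30 to 60 Mb (circles, with 95% counting intervals) and at 10 to 30 Mb (triangles), in the same order of chromosomes; circles run from -0.76 on chromosome 11 to -0.05 on chromosome 16.

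Within chromosomes the far contact of single bins differed in both directions from the typical bin. The far contact of a bin is its mean contact with used bins more than 30 Mb away, and its log2 ratio of plasma over naive had a median of -0.68 over 4526 bins, with 3.67% of bins above 0. Relative to that median, 892 bins (19.7%) were higher and 1039 bins (23%) lower by at least 0.32 on the log2 scale, the threshold used for bins throughout. A bin in the middle of a chromosome has nearer far partners than a bin at an end, and the maps differ more at larger distances. When each contact was divided by the mean at the same distance on the same chromosome, an alternative chosen after seeing the data, 506 bins were higher and 444 lower. Of these, 270 and 323 were among the bins called without that division.

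The 5 bins with the largest relative gain of far contact kept it at matched distance. On chromosome 18 the bin at 55000001 to 55500000 (mm9) had a far contact of 0.441 in naive and 0.938 in plasma cells, from 407 and 905 read pairs. This is a higher level in absolute terms, where most bins had a lower one, and a centred log2 ratio of 1.77 (95% interval 1.59 to 1.94). It lay in a stretch of 5 Mb of higher bins, held 16 naive and 4 plasma ATAC peaks, and its value over the mean at the same distance was 1.42. The others were on chromosome 19 at 38500001 (centred log2 ratio 1.63), chromosome 17 at 35000001 (1.52) and chromosome 16 at 24000001 (1.48) and 30500001 (1.34). Over the mean at the same distance they had 1.24, 1.53, 1.23 and 0.93. The bin on chromosome 17 had few far contacts in either map (0.176 and 0.317), and the bin on chromosome 19 rests on 99 and 199 read pairs with 10 far partners.

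The largest relative losses of far contact clustered on the distal part of chromosome 11. From 99000001 to 122000000, the end of the map, all 46 bins were lower than the median bin past that threshold. It was the longest such stretch of any chromosome; stretches were picked out after their values were seen. Its mean far contact was 1.08 in naive and 0.350 in plasma cells, and it is rich in open chromatin, with 10.8 naive peaks per bin (497 naive and 513 plasma peaks in all). At 30 to 60 Mb 46 of its 46 bins were still below the median bin (median centred log2 ratio -0.97). Over the mean at the same distance on chromosome 11 the median was -0.30, and 39 bins were below and 7 above, so the low level was shared in part by the rest of that chromosome. The bin at 108500001 to 109000000 had the largest drop, from 1.71 in naive to 0.409 in plasma cells (centred log2 ratio -1.39, 95% interval -1.47 to -1.30). The bin at the chromosome's tip, 121500001 to 122000000, went from 1.17 to 0.298 (-1.30). The others named by rank were chromosome 14 at 19500001 (-1.18), chromosome 11 at 91000001 (-1.18) and chromosome 1 at 187500001 (-1.10). Over the mean at the same distance these 5 bins had between -0.93 and -0.52.

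The longest stretches of relatively higher far contact lay on chromosome 16, at 40500001 to 66000000, and on chromosome 15, at 56500001 to 79000000. In the first, mean far contact was 1.31 in naive and 1.29 in plasma cells over 51 bins. In the second it was 1.04 and 0.978 over 45 bins. In both, far contact was thus nearly level between the maps while the median bin lost. Over the mean at the same distance the stretch on chromosome 15 remained above the median bin (0.20), whereas the stretch on chromosome 16 did not (-0.08, with 31 of 51 bins below 0).

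Local contact was higher in plasma cells almost everywhere. The local contact of a bin, its mean contact with used bins 0.5 to 5 Mb away on either side, had a median of 9.60 in naive and 12.5 in plasma cells over 4501 bins with at least 10 partners. Of these bins, 99.3% had a higher value in plasma, and the median log2 ratio was 0.39. By chromosome the median ran from 0.31 on chromosome 13 to 0.46 on chromosome 9. The level of a bin in 1 map went with its level in the other (Pearson r 0.84 of log2 values across bins, which overlap in their windows). The SD of the log2 ratio over bins was 0.17, against a median counting half-interval of 0.07.

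Few bins departed from that common gain. Relative to the median bin, 137 of 4501 bins (3.04%) were higher and 124 (2.75%) lower by at least 0.32 on the log2 scale, in 79 and 76 separate stretches. No stretch was longer than 2.5 Mb among the higher and 3.5 Mb among the lower bins. These counts depended on the measure: up to 2 Mb they were 208 and 232, up to 10 Mb 121 and 47, and with recovered read pairs 146 and 81, of which 67 and 35 were among the bins called on balanced values. The higher bins held fewer ATAC peaks than the average (3.45 against 6.27 per bin). The lower bins had about the average number, but fewer in plasma: 849 naive and 703 plasma peaks, a ratio of 0.828, against 1.04 over all used bins. Chromosome 11 had 19 higher and 2 lower bins, and chromosome 19 had 0 and 9.

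**Figure D3:**
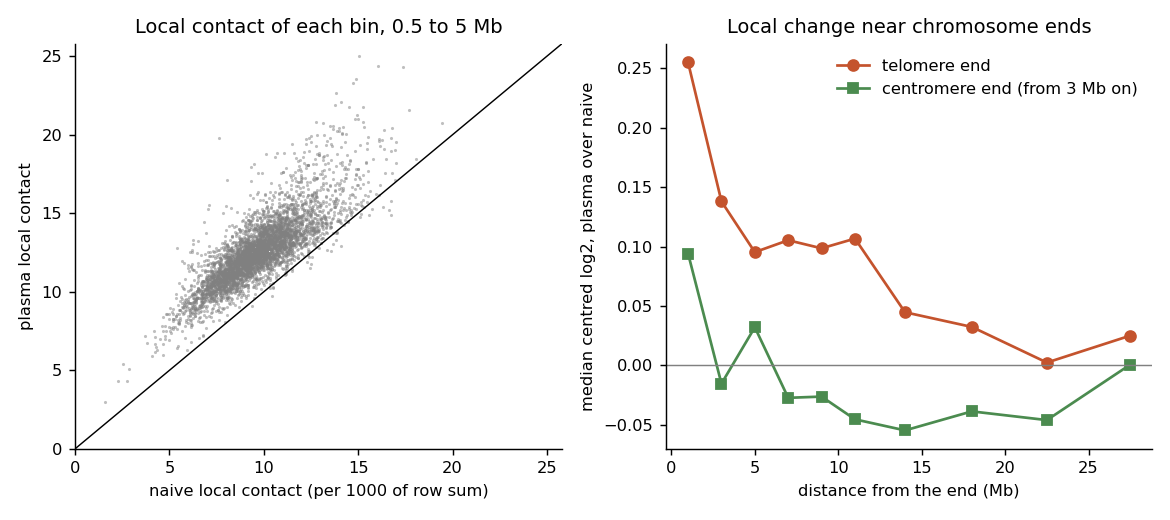
Left, local contact of each of 4501 bins (mean contact with bins 0.5 to 5 Mb away, per 1000 of row sum) in naive B cells against plasma cells, with the line of equal values; 99.3% of bins lie above it. Right, median centred log2 ratio of local contact against the distance from the telomere end (circles) and from the centromere end (squares, counted from 3 Mb on) in Mb; the value nearest the telomere end is 0.25 and the values at 12 to 25 Mb from the centromere end lie between -0.05 and -0.04.

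In the balanced maps the gain of local contact was larger towards the telomere end of the chromosomes. In the last 12 Mb local contact was 10.4 in naive and 14.9 in plasma cells, and the median centred log2 ratio was 0.13 over 425 bins, above 0 on 19 of 19 chromosomes. There 45 bins (10.6%) were higher past the threshold and 2 lower, against 92 (2.26%) and 122 among the 4076 other bins. The value was 0.25 in the last 2 Mb and 0.14 at 2 to 4 Mb. At 3 to 15 Mb from the centromere end the median was -0.0028, above 0 on 9 of 18 chromosomes. Bins at a chromosome's tip have partners on a single side; over bins with all 20 partners the median in the last 12 Mb was 0.10, above 0 on 15 of 16 chromosomes. The pattern depended on the balancing of the maps: with recovered read pairs the median in the last 12 Mb was 0.0083, above 0 on 10 and below 0 on 9 chromosomes.

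All 5 bins with the largest relative gain of local contact lay within 2.5 Mb of a telomere end. The largest was the last bin of chromosome 17, at 95000001 to 95500000, with 7.64 in naive and 19.8 in plasma cells from 272 and 826 read pairs with 10 partners (centred log2 ratio 0.98, 95% interval 0.79 to 1.18). The next was on chromosome 8 at 129000001 to 129500000, with 5.38 and 12.8 from 1879 and 4202 read pairs with 14 partners (0.86, 95% interval 0.79 to 0.94). It held 23 naive and 16 plasma peaks. The other 3 were on chromosome 13 at 120000001 (0.73), chromosome 10 at 129000001 (0.72) and chromosome 18 at 90500001 (0.70). With recovered read pairs these 5 bins had values of 0.59 to 1.14, so they stood out in either form of the map.

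The 5 bins with the largest relative loss lay inside the chromosomes and started from high naive levels. On chromosome 10 the bin at 96500001 to 97000000 had 16.7 in naive and 14.9 in plasma cells, a lower level also in absolute terms (centred log2 ratio -0.56, 95% interval -0.62 to -0.50). Its contact at 5.5 to 30 Mb was higher than that of the median bin by a log2 ratio of 1.07. On chromosome 15 the bin at 61000001 to 61500000 had 16.6 and 15.2 (-0.52) within the longest stretch of lower bins, 60500001 to 64000000, and its far contact was relatively higher (1.17). The others were on chromosome 12 at 43500001 (-0.51, with 5 naive peaks and 0 plasma peaks), chromosome 7 at 94500001 (-0.50) and chromosome 19 at 31500001 (-0.50). With recovered read pairs they had -0.56, -0.38, -0.24, -0.30 and -0.45 in that order. Across all bins the local log2 ratio had an r of -0.62 with the naive local level, which is part of that ratio, and of -0.42 with the far log2 ratio, which shares the fixed row sum.

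Boundaries stayed largely in place. The insulation score of a border is the log2 of the mean contact between the 5 bins before it and the 5 bins after it, over the mean of its chromosome, and a boundary is a local minimum of this score that stands at least 0.1 below the higher ground on both sides, a depth called its prominence. Of 4260 borders tested, 706 (16.6%) were boundaries in naive and 710 (16.7%) in plasma cells, with a median spacing of 3 Mb in both. Within 1 bin, 592 were shared, which is 83.9% of the naive and 83.4% of the plasma boundaries, and 472 lay at the very same border. A match within 1 bin takes in 3 borders. With 16.7% of all borders called in plasma cells, some matches would arise between unrelated positions, a share that was not computed. There were 114 naive and 118 plasma boundaries without a counterpart, and they were shallow, with a median prominence of 0.20 and 0.21. Strong boundaries had a counterpart more often: 66.4% of the naive boundaries with a prominence of 0.1 to 0.3 did, and 97.4% of those with 1 or more. At 500 kb such borders separate compartment stretches and large domains, and smaller domains were not resolved.

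The shared boundaries were shallower in plasma cells. Their median prominence was 0.65 in naive and 0.56 in plasma cells, and 388 of the 592 were weaker and 204 stronger in plasma. The whole insulation profile was flatter, with an SD over borders of 0.51 in naive and 0.39 in plasma cells, although the profiles followed each other (r 0.89). Shared boundaries lay at steps in open chromatin: the number of ATAC peaks per bin differed on average by 5.83 between the 2.5 Mb on either side, against 3.897 for all borders tested and 3.61 and 3.59 for naive and plasma boundaries without a counterpart. Naive boundaries with a prominence of 1 or more had a mean step of 8.17. The deepest boundaries, picked out after their values were seen, were the same in both maps. They lay on chromosome 5 at 126000000 (prominence 3.46 in naive and 2.94 in plasma cells, with 14 and 0.9 peaks per bin on its sides), chromosome 14 at 20000000 (3.30 and 2.72) and chromosome 7 at 136000000 (3.22 and 2.29).

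**Figure D4:**
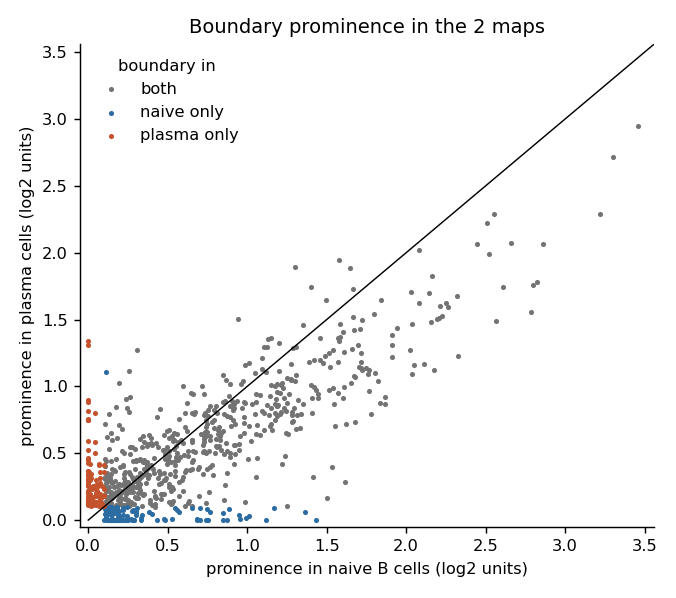
Prominence of each of 824 boundaries (log2 units) in naive B cells against plasma cells, coloured by whether it was called in both maps (grey), in naive B cells alone (blue) or in plasma cells alone (orange), with the line of equal values. Among the shared boundaries 388 of 592 lie below the line, and boundaries of a single map lie near the axes, except 1 called in naive cells alone whose plasma value of 1.11 is that of a minimum matched to another boundary.

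The boundaries with the largest changes in prominence were partly the same border moved by 1 Mb. The largest gain, chromosome 2 at 158000000 (0 in naive and 1.34 in plasma cells), and the largest loss, chromosome 2 at 159000000 (1.43 and 0), lay 2 bins apart. The same held for chromosome 2 at 105000000 (0.31 and 1.27) and 106000000 (1.62 and 0.28), and for chromosome 5 at 39000000 (0 and 0.90) and 38000000 (1.37 and 0.06). The gain on chromosome 2 at 111000000 (0 and 1.31, in a peak-poor region) likewise lay 1 Mb from a naive boundary without a plasma counterpart, at 112000000 (1.12 and 0). The fifth gain, chromosome 7 at 104500000 (0.11 and 1.11), was no separate plasma boundary: it was called in naive cells alone, and the plasma value is that of the minimum next to it, which is matched to the shared boundary at 103500000 (1.12 and 1.11). The remaining losses were chromosome 17 at 50000000 (1.501 and 0.16) and chromosome 12 at 99500000 (2.79 and 1.56).

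When the deepest minimum within 2 bins was taken in each map, a choice made after seeing the data that can count 1 minimum for 2 neighbouring boundaries, losses outweighed gains: 524 of 824 boundaries were weaker in plasma and 300 stronger, and 109 were weaker by at least 0.5 against 14 stronger by that much. At the border on chromosome 17 at 50000000 the read pairs crossing it numbered 1890 in naive and 4085 in plasma cells, and the score went from -1.11 to -0.44. At the border on chromosome 12 at 99500000, between a stretch with 1 peak per bin and a stretch with 12, they numbered 629 and 1744. Its score went from -2.38 to -1.24. Crossing read pairs were more numerous in plasma at the typical border too, with a median over all borders tested of 2803.5 in naive and 3811 in plasma cells. The largest gains by this measure were chromosome 14 at 16000000 (0 and 0.87) and chromosome 17 at 48500000 (0.08 and 0.88), the latter 1.5 Mb from the boundary on chromosome 17 that lost most.

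The separation of open and closed chromatin within chromosomes was weaker in the plasma map. Bins were ranked by the mean number of ATAC peaks in both cell types, a measure that uses no contact, and split into 3 classes of 1516 bins: peak-poor (mean 0.394 peaks), middle, and peak-rich (mean 14.1). Contact between peak-rich and peak-poor bins, over the mean contact at the same distance on the same chromosome, was 0.447 in naive and 0.526 in plasma cells at 0.5 to 5 Mb, 0.394 and 0.486 at 5.5 to 30 Mb, and 0.384 and 0.478 over 30 Mb. It was higher in plasma on 19 of 19 chromosomes in each range, and below 1 in both maps throughout. Contact among peak-poor bins was lower in plasma: 1.46 and 1.41 at 0.5 to 5 Mb (13 of 19 chromosomes lower), 1.84 and 1.71 at 5.5 to 30 Mb (18 of 19), and 1.80 and 1.68 over 30 Mb (19 of 19). Contact among peak-rich bins was lower at 0.5 to 5 Mb (1.18 and 1.11) and at 5.5 to 30 Mb (1.252 and 1.13), each on 18 of 19 chromosomes. Over 30 Mb it was nearly equal (1.34 and 1.33), higher on 9 and lower on 10 chromosomes.

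**Figure D5:**
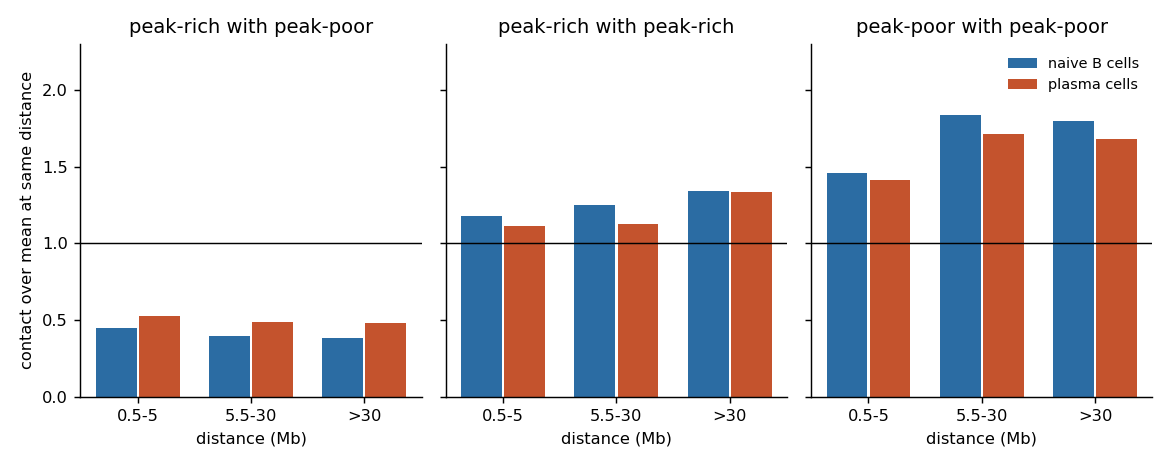
Contact over the mean at the same distance and chromosome for pairs of peak-rich and peak-poor bins, peak-rich bins, and peak-poor bins, by distance (Mb), in naive B cells (blue bars) and plasma cells (orange bars), from 1 library each. Bars for rich with poor pairs are between 0.38 and 0.53 and higher in plasma, and bars for poor with poor pairs are above 1.4 and lower in plasma.

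The drop of contact at long range was common to both kinds of chromatin. Over 30 Mb the mean contact of peak-rich pairs was 1.28 in naive and 0.715 in plasma cells (log2 ratio -0.84), that of peak-poor pairs 1.85 and 1.09 (-0.77), and that of mixed pairs 0.366 and 0.269 (-0.44). At 54 to 66 Mb peak-rich pairs had a log2 ratio of -0.97 and peak-poor pairs -1.01. The number of peaks in a bin had little to do with its own change: the local log2 ratio had an r of -0.09 with the mean number of peaks, and the far log2 ratio an r of -0.03. The local log2 ratio had an r of 0.18 with the change in peaks.

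The ends of a chromosome also met less often in the plasma map. Contact between the first 12 Mb (from 3 Mb on) and the last 12 Mb of the same chromosome was lower in plasma on all 18 chromosomes that could be compared, with log2 ratios from -3.39 to -0.22. Chromosome 3 had 1635 naive and 165 plasma read pairs between its ends, and chromosome 19, the shortest, had 5763 and 4818. Over the contact of other chromosomes at the same distances the difference was above 0 on 9 chromosomes and below 0 on 9, with a median of 0.0093. The median turned negative with other widths of the ends: with 6 Mb it was -0.17, above 0 on 5 of 17 chromosomes, and with 20 Mb it was -0.14, above 0 on 8 of 18. Chromosomes 17 (1.51 and 0.844) and 10 (1.4996 and 0.906) had the largest drops of this ratio and chromosome 15 (0.943 and 1.4001) the largest rise.

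Of the panel of 16 gene loci, placed at approximate mm9 positions, 25 of 31 bins were used, and the others lay in the immunoglobulin loci. In local contact 1 of the 25 bins was lower than the median bin past the threshold and 0 were higher, against 2.75% and 3.04% of all bins. The lower one was Ell2, which encodes an elongation factor that promotes the secreted form of the antibody heavy chain. Its bin on chromosome 13, 75500001 to 76000000, had 9.83 in naive and 10.2 in plasma cells (centred log2 ratio -0.34, 95% interval -0.43 to -0.25, higher than 2.07% of bins). With recovered read pairs it was -0.23. Xbp1, a transcription factor of the unfolded protein response, had 10.1 and 16.2 (0.30, percentile 96.3). Its bin on chromosome 11, 5000001 to 5500000, held 11 naive and 20 plasma peaks. The calls depended on the measure. Over the mean at the same distance 326 of all bins were higher and 187 lower. In the panel Pax5, the Bach2 bins, the Ebf1 bin at 44500001, Atf4 (0.45) and the Igh bin at 115500001 (0.44) were then higher. Ell2 (-0.55) and Prdm1 (-0.38) were lower. With recovered read pairs Pax5 was higher past the threshold and Ell2 was not lower past it.

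Loci of naive B cell regulators did not share a direction of local change when distance was not matched. Pax5, which maintains B cell identity, had a local contact of 7.48 in naive and 11.9 in plasma cells (0.28, percentile 95.5), and 0.41 with recovered read pairs. Its far contact was 0.534 and 0.500, relatively higher than in most bins (0.58, percentile 94.3). Bach2, a repressor of Prdm1, had 7.20 and 11.3 in the bin at 32000001 of chromosome 4 (0.27) and 9.56 and 13.2 in the next (0.08). Ebf1, another B cell regulator, had 10.9 and 11.9 in the bin at 44500001 of chromosome 11 (-0.27, but -0.08 with recovered read pairs), and a relatively higher far contact (0.513 and 0.550, log2 ratio 0.78, percentile 97.7). Over the mean at the same distance the local values were 0.62 for Pax5, 0.91 and 0.33 for the Bach2 bins, and 0.40 for this Ebf1 bin. The Ebf1 bin at 44000001 had -0.14 without that division and -0.08 with it. Prdm1 (-0.06), Irf4 (-0.07), Igl (-0.01) and Jchain (-0.11) were close to the median bin in local contact without that division. With recovered read pairs they had 0.04, 0.05, 0.21 and 0.07, all of the other sign, and Igl was at percentile 91.0. Over the mean at the same distance Prdm1 had -0.38, which is past the threshold, Irf4 -0.27, Igl 0.21 and Jchain -0.26.

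Of the same 25 bins, 7 had a relatively higher far contact past the threshold and 6 a lower one, against 19.7% and 23% of all bins. Atf4, a transcription factor of the stress response, had the highest rank (percentile 99.7). Its far contact on chromosome 15 was 0.114 in naive and 0.168 in plasma cells from 208 and 318 read pairs (1.23, 95% interval 0.98 to 1.49), and 1.07 over the mean at the same distance. The bin thus had few far contacts in either map: the median over all bins was 1.01 in naive and 0.614 in plasma cells, and the lowest value 0.103 and 0.0993. Xbp1 was among the lower ones (1.13 and 0.447, -0.66), but over the mean at the same distance on chromosome 11 its value was 0.29. Prdm1 lay at a boundary in both maps, as did Irf4, the Ciita bin at 10000001 of chromosome 16, and Hspa5, which encodes the chaperone BiP. No other bin of the 25 did, and some bins of Igh and Igk had no insulation score. Of all 4260 borders tested, 592 were boundaries shared by the maps within 1 bin. Bcl6, a regulator of germinal centre B cells, lay at a boundary called in plasma alone, and the score of its bin went from 0.14 to -0.17. The border at Ebf1 at 44000001 had a score of -0.76 in naive and -0.14 in plasma cells.

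Pairs of these loci on the same chromosome were compared after the other values were seen. Several rested on few read pairs, and for these a moderate departure from the decay could not be seen. Ebf1 and Ern1, for instance, had 137 and 59 read pairs and an interval of -0.31 to 0.57 for the log2 difference over the mean. Xbp1 and Ern1, which encodes the IRE1 kinase that activates Xbp1, lie 100 to 102 Mb apart on chromosome 11. Their bins and neighbours shared 316 naive and 53 plasma read pairs, a contact of 1.72 and 0.278. Over the mean at that distance this was 2.11 and 2.41, a log2 difference of 0.19 with a 95% interval of -0.23 to 0.61. Irf4 and Ell2, 44 to 46 Mb apart on chromosome 13, had 0.792 and 0.746 (0.662 and 0.783 over the mean). Pax5 and Bach2, 11 to 13.5 Mb apart on chromosome 4, had 1.65 and 2.12 (0.710 and 0.805 over the mean). Of 8 such pairs, the interval of the difference over the mean lay on 1 side of 0 for 1 pair alone, Ciita and Igl on chromosome 16, with 2.18 and 1.74 (0.917 and 0.675 over the mean, log2 difference -0.44, 95% interval -0.66 to -0.22). Ciita encodes the activator of MHC class II genes and Igl is the lambda light chain locus.

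RNA of genes that shape chromosomes was read in the RNA-seq libraries of the series, which are other preparations than the contact maps, with 1 library per cell type. Log2 ratios of TPM + 1 were centred on the median gene among those that reached 5 TPM in both, which was at -0.99. Among 10194 genes that reached 5 TPM in either library, 16% stood at least 2-fold above that median in plasma and 22% at least 2-fold below. Of 8 condensin genes, whose products compact chromosomes in mitosis, 5 were at least 2-fold higher and 0 lower, with a median of 1.76. Without centring 3 were higher, with a median of 0.77, and the sum of the list was 229 TPM in naive and 263 in plasma cells. Smc4 (86.1 to 42.9 TPM), Ncaph2 (70.3 to 60.8) and Ncapd3 (11.6 to 9.75) did not pass 2-fold after centring. Ncapg went from 4.92 to 27.0 TPM (3.23), Ncaph from 8.09 to 31.1 (2.81) and Ncapg2 from 4.49 to 10.7 (2.08). All 12 mitosis genes were higher, with a median of 3.34 and a sum of 137 TPM in naive and 753 in plasma cells. The largest differences were Ube2c (12.8 to 129 TPM), Ccnb1 (8.27 to 66.1) and Cdc20 (10.3 to 72.5).

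Of 14 genes of cohesin, its regulators and Ctcf, 2 were at least 2-fold higher and 4 lower (median -0.51). The higher ones, Cdca5 (4.03 to 16.4 TPM, 2.77) and Esco2 (2.81 to 6.83, 2.03), act in the cohesion of sister chromatids after replication. The lower ones were Esco1 (60.4 to 10.0, -1.49), Nipbl (71.7 to 12.5, -1.44) and Mau2 (65.7 to 13.3, -1.23), of which Nipbl and Mau2 form the cohesin loader, and the cohesin subunit Stag2 (82.3 to 17.7, -1.17). Wapl, which releases cohesin, had 56.5 and 43.7 TPM (0.63), and Ctcf 118 and 34.9 (-0.75). Without centring, 10 of the 14 were lower and 2 higher. Of 8 genes of the nuclear lamina and envelope, Lmnb1 was higher (37.4 to 50.8 TPM, 1.42) and Sun2 lower (163 to 26.7, -1.58). Their median was 0.21, and -0.78 without centring. The RNA of mitosis genes was thus higher in the cell type with the steeper decay at long range, and so was that of 5 of 8 condensin genes after centring. The part of dividing cells in the contact difference was not tested.

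The RNA libraries fitted their labels apart from 1 marker. All 5 naive B cell markers that matched were lower in plasma (4814 and 442 TPM in sum), and 5 of 6 plasma markers were higher (1019 and 7995 TPM), with Sdc1 at 11.1 and 5.38 TPM. Markers of other cells were higher in the naive library: T and NK cell genes summed to 58.3 and 3.10 TPM, myeloid genes to 112 and 1.58, and erythroid genes to 32.8 and 0.014. In the plasma library Cd3e, Hba-a1 and Hbb-bs were listed at 0, and Csf1r was at 0.014 TPM. Whether such cells were present among those used for the naive contact map was not tested.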

How the data were processed

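Values in the deposited contact maps are a signal that the authors had balanced so that rows sum alike, at 500 kb and 2 Mb on mm9. The submitters' processing notes name Bowtie, HOMER, TopHat, MACS 1.4 and kallisto for these samples. Not given in the sources used here is which of them made the maps, how reads were filtered and whether libraries were pooled. The deposited lists of 1 Mb interactions give read pair counts, per the file headers. The deposited RNA files give TPM by the authors with kallisto, per the file headers, and were summed per gene here. Each ATAC peak has a score by the authors' peak caller, which was not used beyond counting peaks per bin by their midpoint.

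Entries of each map were averaged with their transpose, since 0.425% of naive and 0.122% of plasma entries within chromosomes differed by more than 1% between both orders. Read pairs were recovered from the steps of low values: 99.9% of entries between chromosomes in both maps, and 99.3% and 99.8% of low entries within chromosomes, lay within 0.05 of a whole number. Of 6068 naive and 6503 plasma listed interactions within chromosomes, 98.3% and 99.7% had the same read pairs. A bin was used where it had nonzero contact with at least 0.5 times as many bins of other chromosomes as the median bin, in each map. No gene annotation of mm9 was used and no coordinates were converted.

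No test was possible with 1 library per cell type. Regions were named by rank: 5 bins each with the largest gain and loss of local and of far contact (at least 10 bins apart), 5 boundaries each way, 3 chromosomes each way, and the 16 loci, and other regions are marked as chosen afterwards. The members, lists and measures were chosen with earlier results of these data known. Some of the measures, not all, were tested on simulated data. The outcome is not given here, and no result above rests on it. Computation used Python 3.11.15, numpy 2.4.6, pandas 2.3.3 and matplotlib 3.10.9.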

Additional observations from a re-analysis of the deposited data

How the results depend on the processing

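No paired analysis was possible because the labels give no replicate numbers and each cell type has 1 library. Leaving out a replicate was not possible either. A count was taken as moved where it differed by more than 1.5-fold. Any other value was taken as moved where it left its counting interval or, where it has none, a set margin. Moves differed in size, from minor ones to 137 against 4 locally higher bins with distance 0 included. Of 178 recomputed values, 78 stayed within these limits, 98 moved and 2 changed sign. Both sign changes came with a window up to 2 Mb. There the local value of Irf4 was 0.020 and that of the bin of Bach2 at 32500001 was -0.018. The other values that changed sign had lain within their margin of 0, among them the lamina RNA median (0.21, and -0.78 without centring).

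With recovered read pairs the slope differences were -0.094 (0.5 to 5 Mb), 0.043 (5 to 20 Mb) and -1.03 (20 to 80 Mb), the crossing lay at 31 Mb, the share differences were 5.79 points (0.5 to 5 Mb) and -6.21 points (over 30 Mb), the median local log2 ratio was 0.40, 81 bins were locally lower, the last 12 Mb had 0.0083, the log2 ratio of the SD of insulation was -0.29 (main -0.38) and that of far contact over chromosomes -0.67 (main -0.65). With all nonempty bins the slope differences were -0.088 and -1.03, the crossing 33 Mb, the local share difference 5.45 points and the last 12 Mb 0.14. With equal weight of chromosomes the slope difference at 20 to 80 Mb was -1.06. In 2 Mb maps the slope differences were 0.056 and -1.03, the crossing 34 Mb and far contact -0.68. Scaling to contacts within autosomes put the crossing at 29.5 Mb, the far share difference at -8.92 points, and far contact as a share of the chromosome at -0.75. Far contact was -0.36 over 20 Mb and -1.27 over 50 Mb. Over the mean at the same distance 506 bins had higher and 444 lower far contact.

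The median local log2 ratio was 0.45 up to 2 Mb, 0.35 up to 10 Mb and 0.24 with distance 0 included. Bins called locally higher and lower were 208 and 232 up to 2 Mb, 4 and 13 with distance 0, 17 and 0 at 1.5-fold, 2996 and 0 without centring, and 326 and 187 over the mean at the same distance, and 47 were lower up to 10 Mb. The last 12 Mb had 0.11 up to 2 Mb, 0.15 up to 10 Mb, 0.080 with distance 0, 0.19 over the mean at the same distance and 0.10 over bins with all partners; the last 6 Mb had 0.15 and the last 20 Mb 0.094. The naive boundaries found in plasma were 89.4% with a window of 3 bins, 87.4% and 81.1% at a prominence of 0.05 and 0.2, 66.9% in the same bin and 88.1% within 2 bins. The log2 ratio of median prominence was -0.22, and -0.33 with a window of 8 bins and -0.34 at a prominence of 0.05. Rich with poor contact had log2 ratios of 0.24, 0.30 and 0.31 by distance, 0.17, 0.24 and 0.26 with classes by the plasma list and 0.38, 0.44 and 0.47 with 5 classes. Chromosome ends over expected had -0.17 with 6 Mb and -0.14 with 20 Mb, against 0.0093.

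Limits: 1 library per cell type leaves every difference without a replicate check, and genotype, culture and sorting go with cell type. Domains under 500 kb were not resolved. The insulation score averages 2.5 Mb on either side of a border, so borders of domains smaller than that can be missed too. Contact at 100 Mb rests on 10305 naive and 2170 plasma read pairs over all autosomes.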
